A study of Mus musculus with 6 samples.

Results

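The genes described here carry a Kcn symbol, the prefix given to potassium channel pores and the proteins that bind them. All rows of the files whose symbol starts with Kcn were taken, except Kcnj8, Kcnj10 and Kcnj13, and a row was kept if it averaged 1 TPM or more across the 6 libraries. This gave 76 of the 98 Kcn rows, among 35857 genes in the files and 14994 genes that reached the same mean and were tested. TPM is a level scaled to a common library total and already divided by transcript length, so it can be set side by side between genes. Polyadenylated RNA was taken at postnatal day 7 from the cortices of C57BL/6 mice, with 3 brains in each group, and was sequenced on an Ion Proton instrument. The 3 Qk_KO libraries carry the genotype label Qk-/-, and the 3 Control libraries the genotype label wild type. Which exons were removed and in which cells is not given in the sources used here. Quaking, the product of Qk, binds RNA in glia and neural progenitors and acts on splicing, stability and translation of its target transcripts. Qk itself was at 14.6, 15.2 and 15.4 TPM in Qk_KO libraries and at 36.5, 43.2 and 41.3 TPM in Control libraries, so the Qk signal was lower but not absent in the tissue labelled knockout.

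Potassium channels let potassium leave or enter the cell and thereby set the resting potential, the shape of the action potential and the rhythm of firing. The pore is made of alpha subunits: voltage-gated (Kcna to Kcnd, Kcnh and Kcnq), inwardly rectifying (Kcnj), leak channels with a tandem of pore loops (Kcnk), and channels opened by intracellular calcium or sodium (Kcnma, Kcnn, Kcnt). Beta subunits and other partners (Kcne, Kcnab, Kcnip, Kcnmb) have no pore of their own and change the gating, trafficking or pharmacology of the pore they join. In brain, neurons carry most voltage-gated and calcium-activated channels, while inward rectifiers and leak channels are also prominent in astrocytes, which take up potassium released by active neurons. Some symbols of the set are not channel subunits at all: Kcnrg encodes a regulator of channel assembly, and Kcnmb4os2 and Kcnd3os are transcripts from the opposite strand of Kcnmb4 and Kcnd3.

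Past the adjusted threshold of 0.05, 1 member fell and none rose. Kcne1l, listed in RefSeq also as Kcne5, encodes a single-pass beta subunit that reduces the current of KCNQ channels in work on the human protein. Its level was 6.42, 7.07 and 7.03 TPM in Qk_KO libraries and 23.0, 25.3 and 30.1 TPM in Control libraries. The 3 Qk_KO values lay within 1 TPM of each other and far below the lowest Control value. The mean was 6.84 ± 0.364 TPM in Qk_KO and 26.1 ± 3.60 TPM in Control (SD, n = 3 each), a ratio of 0.262. On the log2(TPM + 1) scale the change was −1.78 with a standard error of 0.123 and a 95% interval of −2.06 to −1.51 (limma, Benjamini-Hochberg adjusted p = 0.000855). Among the 76 members Kcne1l ranked 50th by level in Qk_KO and 22nd in Control. Kcne1l was picked out because its fall was known from earlier results of these data, so its value describes a gene chosen for its change. Across all genes tested, 0.387% passed the adjusted threshold of 0.05 in either direction 0.287% passed it downwards and 0.1% upwards.

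**Figure D1:**
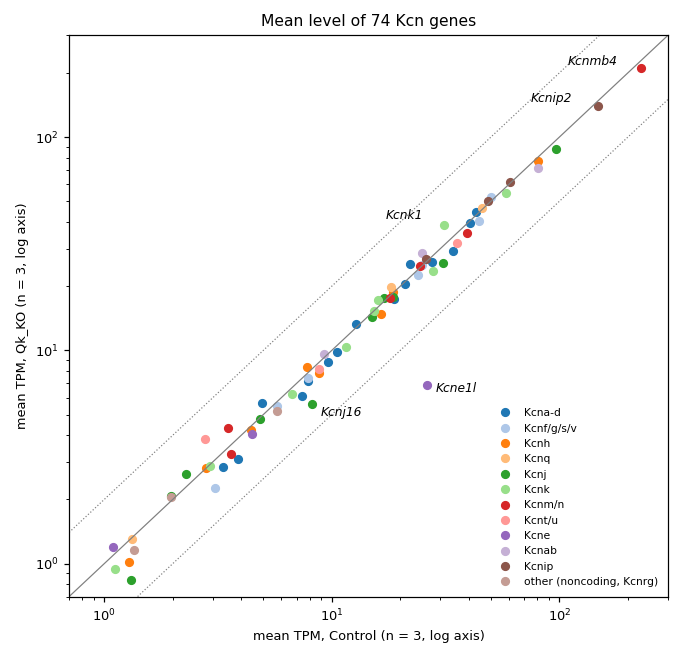
Mean TPM of 74 of the 76 Kcn genes in Qk_KO (vertical, log axis) against Control (horizontal, log axis), n = 3 libraries each, coloured by subfamily; the solid line marks equal levels and the dotted lines a 2-fold difference. Kcne1l lies outside the dotted lines, at 6.84 TPM in Qk_KO and 26.1 TPM in Control, and the other genes shown lie between them.

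Kcne1l is a short gene on the minus strand of the X chromosome, chrX:142304752-142306294 in GRCm38. The nearest tested gene at higher coordinates is Acsl4, which encodes an acyl-CoA synthetase and lies 11699 bases away. It was at 19.0, 14.4 and 16.5 TPM in Qk_KO libraries and 16.9, 13.5 and 14.4 TPM in Control libraries, with overlapping groups (log2 change 0.15, adjusted p = 0.815 by limma). The nearest tested gene at lower coordinates, Nxt2, which encodes a cofactor of messenger RNA export, ends 65060 bases away. Nxt2 was at 13.9, 7.66 and 9.87 TPM in Qk_KO libraries and 14.9, 16.9 and 18.3 TPM in Control libraries. Those groups did not overlap, and the difference missed the threshold (log2 change −0.66, adjusted p = 0.312 by limma).

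Quaking binds RNA at a short core, ACUAAC or ACUAAU, which was searched as letters on the transcript strand. One 3′ UTR was used for each gene, from its longest basic coding transcript in the GENCODE annotation. Kcne1l held none of these letters in its 3′ UTR of 842 bases, nor elsewhere in its transcript of 1543 bases. Of 1642 tested genes with a 3′ UTR within 20% of that length, 23.0% held a match. Matches were found in 31 of the 74 members with an annotated 3′ UTR, a share of 41.9%, against 34.0% of 13825 tested genes. Members had longer 3′ UTRs, with a median of 1799 bases against 1162 bases for all tested genes, and per kilobase they held 0.280 matches against 0.343. Kcne1l held no match and was the only member past the limma threshold, so none of the 31 with a match passed it. This is not a separate result. As examples, 4 matches are shown. They are the first match in Kcna2 and in Kcnc2, which held the most (4 each), and the single match in Kcnmb4 and in Kcnj9. Kcnmb4 was the most abundant member, and the Kcnj9 groups did not overlap in unscaled TPM. The core is in capitals, written with T as in the transcript sequences of GENCODE (GRCm38).
Kcna2, chr3:107105605-107105631, plus strand: ttgaagcctACTAATgtactcacagct
Kcnc2, chr10:112463517-112463546, plus strand: attggccagtgcACTAATgcataagccata
Kcnmb4, chr10:116417980-116418009, minus strand: ctctatggagtgACTAACtgtttgggaaac
Kcnj9, chr1:172320615-172320644, minus strand: atgctgattgtcACTAATtacctctacgac
The 31 members with a match had log2 changes of −0.33 to 0.20 and a median of −0.06. The 43 without a match had a median of −0.05. A match is a run of letters and not a shown binding site.

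The other Kcne members did not pass the threshold. Kcne2, a subunit that in mice is abundant in choroid plexus epithelium, had levels of 4.84, 3.25 and 4.12 TPM in Qk_KO libraries and 4.30, 2.34 and 6.75 TPM in Control libraries. The Control range enclosed all Qk_KO values (log2 change −0.04, 95% interval −0.70 to 0.62). Kcne2 had, after Kcnrg, the widest spread within groups of any member, 0.460 on the log2 scale against a median of 0.148 for the members. The choroid plexus markers Ttr, Folr1 and Clic6 varied as well, with a summed level of 665 to 1013 TPM in Qk_KO and 742 to 1526 TPM in Control, and their part in the Kcne2 values was not tested. Kcne4, whose product inhibits some KCNQ and Kv1 channels, was near the limit of 1 TPM, at 1.17, 1.09 and 1.33 TPM in Qk_KO and 0.440, 1.36 and 1.48 TPM in Control. The sum of the 3 Kcne genes was 11.4 to 12.5 TPM in Qk_KO and 27.8 to 38.3 TPM in Control. Without Kcne1l it was 4.34 to 6.01 TPM in Qk_KO and 3.70 to 8.23 TPM in Control, so the groups then overlapped. Kcne1 was listed at 0 in all 6 libraries, and Kcne3 averaged 0.320 TPM in Qk_KO and 0.397 TPM in Control.

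**Figure D2:**
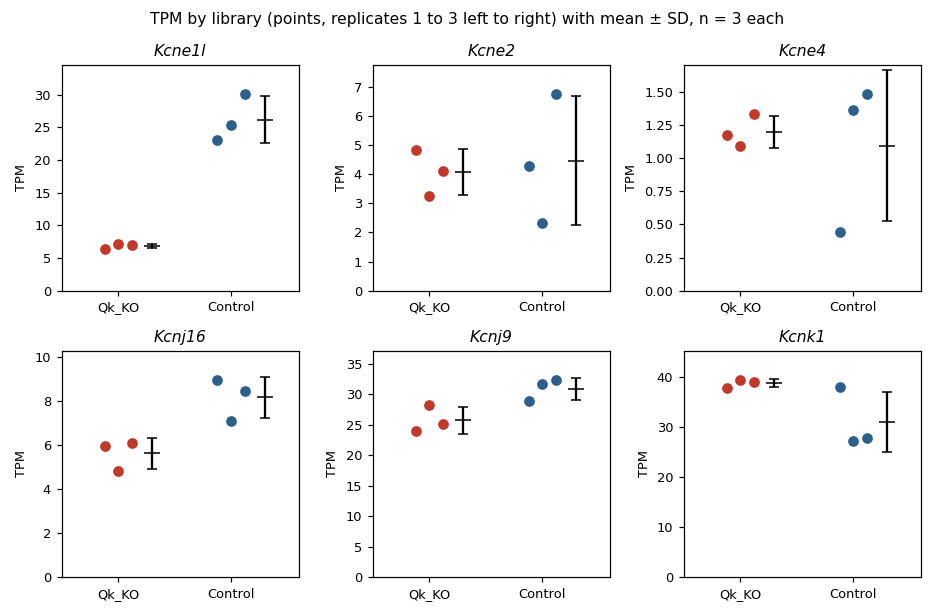
TPM in each library (points, replicates 1 to 3 from left to right) with mean and SD (n = 3) for the 3 Kcne members and for the 3 other members with an unadjusted p under 0.05, Qk_KO left and Control right in each panel. Kcne1l lies at 6.42 to 7.07 TPM in Qk_KO and 23.0 to 30.1 TPM in Control; Kcne2, Kcne4 and Kcnk1 overlap between the groups, and Kcnj16 and Kcnj9 do not.

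The tissue is a mixture of cells, and fewer cells of a type cannot be told apart from less RNA per cell. Beside the fall of Kcne1l, 3 of 8 astrocyte markers fell at the threshold (Slc1a3, S100b and Gja1) and 0 rose. Across all genes tested, 0.287% fell and 0.1% rose at that threshold. The summed level of the astrocyte list was 621 to 673 TPM in Qk_KO and 835 to 887 TPM in Control, and no marker was at 0. Most of that difference was in Slc1a3, with means of 112 TPM in Qk_KO and 265 TPM in Control. Aldoc, Gfap and Slc1a2 were lower in Qk_KO without overlap and missed the threshold. Aldh1l1, an astrocyte enzyme of folate metabolism, went the other way, at 71.5 to 80.9 TPM in Qk_KO and 50.4 to 63.8 TPM in Control. Its means were 77.0 TPM in Qk_KO and 55.5 TPM in Control. The Aldh1l1 groups did not overlap, and it missed the threshold (adjusted p = 0.139 by limma). Aqp4, the astrocyte water channel, was at 44.5 to 48.2 TPM in Qk_KO and 46.0 to 52.5 TPM in Control. Of 5 markers of myelinating oligodendrocytes 2 fell, with a sum of 132 to 148 TPM in Qk_KO and 221 to 231 TPM in Control. Among 5 precursor markers Gpr17 fell and Olig2 rose, with a sum of 322 to 349 TPM in Qk_KO and 269 to 305 TPM in Control. Olig1 and Olig2 carried the higher sum, while Pdgfra, Cspg4 and Gpr17 had lower means in Qk_KO and the 5 log2 changes had a median of −0.14. None of the markers of excitatory neurons, interneurons, neurons in general, microglia, endothelium, mural cells or choroid plexus passed the limma threshold. Among these lists the summed levels did not overlap for interneuron markers, at 1952 to 1999 TPM in Qk_KO and 1488 to 1769 TPM in Control, a sum carried by Sst and Npy, with a median log2 change of 0.05 for the list. They did not overlap for mural cell markers either, at 186 to 203 TPM in Qk_KO and 222 to 241 TPM in Control. That difference was mostly in Vtn, with means of 138 TPM in Qk_KO and 172 TPM in Control. Pdgfrb, Rgs5 and Cspg4 had lower means in Qk_KO and overlapped between the groups. The part of these cell populations in the Kcne1l result was not tested.

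The KCNQ channels, among which the best known partners of Kcne proteins are found, gave no call. Kcnq1, the classic Kcne partner of heart and inner ear, was at 1.95, 0.980 and 0.980 TPM in Qk_KO and 1.88, 1.22 and 0.880 TPM in Control. Kcnq3, a subunit of the neuronal M-current that limits repetitive firing, was far higher. Kcnq3 was at 44.5, 46.1 and 48.4 TPM in Qk_KO and 47.6, 43.7 and 45.1 TPM in Control, with overlapping groups (95% interval of the log2 change −0.15 to 0.20). Kcnq5, another M-current subunit, ranged over 16.9 to 21.2 TPM in Qk_KO and 16.5 to 19.3 TPM in Control.

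The cytoplasmic beta subunits and the KChIP proteins were among the abundant members. Kcnab1 to Kcnab3 encode the Kv beta subunits that bind Kv1 channels. Kcnab2, the highest of them, was at 66.9, 81.6 and 67.0 TPM in Qk_KO and 93.7, 73.9 and 73.3 TPM in Control, with the groups overlapping through Qk_KO replicate 2. Kcnab1 was at 29.3, 27.9 and 28.7 TPM in Qk_KO and 23.5, 24.2 and 26.9 TPM in Control. Its groups did not overlap, and it missed the threshold (log2 change 0.20, 95% interval −0.00128 to 0.40, adjusted p = 0.576 by limma). The 4 KChIP genes, whose calcium-binding products join Kv4 channels, had log2 changes of −0.08 to 0.05, and for all 4 the 95% interval lay within 0.5 of 0. Kcnip2 was the second most abundant member, at 130, 146 and 143 TPM in Qk_KO and 160, 145 and 138 TPM in Control. Kcnip3, which also encodes the transcriptional repressor DREAM, was at 57.3, 70.0 and 57.3 TPM in Qk_KO and 56.4, 58.5 and 67.9 TPM in Control. Kcnip1 was at 54.6, 45.0 and 51.1 TPM in Qk_KO and 44.9, 48.8 and 51.2 TPM in Control.

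The 15 pores of the Kv1 to Kv4 families (Kcna to Kcnd) showed no call, and 0 of 15 had groups that did not overlap. Across all genes tested, 14.2% did not overlap in either direction. Their log2 changes were between −0.25 (Kcnb2) and 0.20 (Kcnd3), with 4 above and 11 below 0 and a median of −0.08, beside a median of −0.03 for all genes tested. Kcna6, a Kv1 channel, was the highest, at 43.8, 47.2 and 42.0 TPM in Qk_KO and 40.7, 44.6 and 43.4 TPM in Control. Kcnd2, the Kv4 pore of the dendritic A-type current, was at 39.1, 35.5 and 44.6 TPM in Qk_KO and 38.5, 39.2 and 43.2 TPM in Control. Kcnd3, the other main Kv4 pore, was at 24.98, 27.82 and 23.15 TPM in Qk_KO and 21.34, 24.62 and 19.96 TPM in Control, with overlapping groups. Kcnb2, a delayed rectifier of the Kv2 family, was at 2.88, 3.63 and 2.76 TPM in Qk_KO and 3.45, 3.47 and 4.70 TPM in Control. The 4 Kcnc genes encode Kv3 channels, which allow fast repetitive firing. Kcnc4, the highest of them, was at 25.9, 30.0 and 31.8 TPM in Qk_KO and 34.2, 31.0 and 36.7 TPM in Control. All 4 had a log2 change below 0, of −0.21 to −0.03, also after median-of-ratios scaling of the libraries. Their summed level was 79.9 to 87.0 TPM in Qk_KO and 90.2 to 94.3 TPM in Control, without overlap. However, 0 of the 4 passed and 0 of the 4 had groups that did not overlap. Of all genes tested, 57.0% had a log2 change below 0, and 49.9% after scaling. The Kcna genes had 3 above and 3 below 0, and the Kcnd genes 1 above and 2 below. Of the Kcnb genes 0 were above and 2 below. The sum over all 15 pores was 256 to 263 TPM in Qk_KO and 264 to 271 TPM in Control, and these sums overlapped once the libraries were scaled by median of ratios.

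Modifier and ether-à-go-go subunits gave no call. The 7 genes Kcnf1, Kcng1, Kcng2, Kcns1 to Kcns3 and Kcnv1 encode electrically silent subunits that join Kv2 pores and alter them. Kcng1 was the highest of them, at 55.3, 54.1 and 48.0 TPM in Qk_KO and 52.8, 47.3 and 50.3 TPM in Control. Kcnf1 was at 40.5, 43.6 and 37.6 TPM in Qk_KO and 45.7, 43.8 and 43.4 TPM in Control, overlapping only through Qk_KO replicate 2. Kcns3 had the most negative log2 change of the 7, −0.31, at 1.48 to 3.01 TPM in Qk_KO and 2.05 to 4.28 TPM in Control. Among the 8 Kcnh genes, Kcnh3, an ELK-type channel of forebrain neurons, was by far the most abundant, at 77.0, 82.1 and 73.0 TPM in Qk_KO and 86.7, 74.6 and 80.5 TPM in Control. Its gene body overlaps that of Mcrs1 on the opposite strand, and the strand setting of the counting is not given in the sources used here. Kcnh2, the ERG channel known from heart repolarisation, was at 21.8, 17.5 and 17.1 TPM in Qk_KO and 14.7, 17.9 and 23.0 TPM in Control. Kcnh1, the EAG channel, had a mean of 14.8 ± 1.08 TPM in Qk_KO and 16.5 ± 1.38 TPM in Control (SD, n = 3 each), with overlapping groups. The log2 changes of the Kcnh genes were between −0.17 and 0.05. Kcnh7 gave the highest of these and was raised by 1 library, with 6.64, 6.67 and 11.9 TPM in Qk_KO and 7.02, 9.05 and 7.35 TPM in Control. The change of Kcnh7 turned to −0.20 without Qk_KO replicate 3.

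Of the 10 inward rectifiers, 0 passed the threshold and 2 had unadjusted p under 0.05, where 8.72% of all tested genes had. Kcnj16 encodes Kir5.1, a subunit that gives no current alone and joins Kir4.1 in astrocytes and kidney. It was at 5.93, 4.82 and 6.10 TPM in Qk_KO and 8.93, 7.11 and 8.43 TPM in Control. The groups did not overlap, and after Kcne1l this was the largest log2 change of the 76 genes in size, −0.47 (SE 0.146, 95% interval −0.80 to −0.14, adjusted p = 0.363 by limma). Kcnj9 encodes GIRK3, a G-protein-gated subunit. It was at 24.0, 28.2 and 25.1 TPM in Qk_KO and 28.9, 31.6 and 32.3 TPM in Control, again without overlap (log2 change −0.26, adjusted p = 0.478 by limma). After median-of-ratios scaling the Kcnj9 groups overlapped. The partner subunits GIRK1 and GIRK2 overlapped between groups: Kcnj3 was at 15.8 to 20.3 TPM in Qk_KO and 17.3 to 19.8 TPM in Control, and Kcnj6 at 11.9 to 16.2 TPM in Qk_KO and 13.3 to 17.9 TPM in Control. Kcnj4, the Kir2.3 pore, was the most abundant inward rectifier of the set, at 82.2, 99.3 and 82.6 TPM in Qk_KO and 101, 96.0 and 92.4 TPM in Control. Kcnj11, the pore of the ATP-sensitive channel, was at 13.2, 21.3 and 18.1 TPM in Qk_KO and 18.7, 15.7 and 16.6 TPM in Control. Kcnj14 had the highest log2 change of these genes, 0.14, at 2.06, 2.72 and 3.10 TPM in Qk_KO and 2.12, 1.95 and 2.76 TPM in Control.

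Leak channels of the Kcnk family also gave no call among 9 members, with log2 changes of −0.24 (Kcnk9) to 0.33 (Kcnk1). Kcnk1 encodes TWIK1, a channel found in neurons and astrocytes. It was at 37.8, 39.3 and 39.1 TPM in Qk_KO and 38.0, 27.2 and 27.9 TPM in Control. Control replicate 1 lay among the Qk_KO values and the other two Control libraries lay well below them (log2 change 0.33, 95% interval 0.04 to 0.61, adjusted p = 0.496 by limma). Without Control replicate 1 the log2 change was 0.48 and the adjusted p 0.117, the lowest of any named member besides Kcne1l in any setting tried. Kcnk2, which encodes the mechanosensitive channel TREK1, was the most abundant, at 53.1, 53.1 and 57.4 TPM in Qk_KO and 59.8, 55.6 and 58.5 TPM in Control. Kcnk9, which encodes the acid-sensitive channel TASK3, was at 26.7, 24.9 and 18.9 TPM in Qk_KO and 31.4, 30.0 and 22.3 TPM in Control. In both groups replicate 3 was the lowest.

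Calcium-activated and sodium-activated channels were led by a beta subunit. Kcnmb4, the neuronal beta4 subunit of the BK channel, was the most abundant of all 76 members and alone held 219 of the 1859 TPM that the members summed to on average. It was at 215, 212 and 203 TPM in Qk_KO and 242, 222 and 221 TPM in Control. The groups did not overlap, and the log2 change of −0.12 missed the threshold (95% interval −0.27 to 0.04, adjusted p = 0.702 by limma). After median-of-ratios scaling the Kcnmb4 groups overlapped. The BK pore gene Kcnma1 was at 18.5, 17.2 and 17.1 TPM in Qk_KO and 19.3, 17.1 and 17.9 TPM in Control, far below its beta subunit on this length-scaled level. Kcnmb2, the inactivating BK beta subunit, was at 4.85, 4.94 and 3.24 TPM in Qk_KO and 3.61, 2.88 and 3.97 TPM in Control. The SK channels Kcnn1, Kcnn2 and Kcnn3, which open on calcium entry and limit firing, overlapped between groups. Kcnn2 was at 36.3, 32.4 and 37.7 TPM in Qk_KO and 45.0, 35.8 and 37.5 TPM in Control. Kcnn1 ranged over 19.7 to 30.0 TPM in Qk_KO and 18.2 to 28.0 TPM in Control, and Kcnn3 over 2.67 to 3.96 TPM in Qk_KO and 2.87 to 4.10 TPM in Control. Kcnt1, the sodium-activated Slack channel, was at 33.6, 32.5 and 29.6 TPM in Qk_KO and 34.6, 35.4 and 35.9 TPM in Control. These groups did not overlap, with a log2 change of −0.14 (adjusted p = 0.697 by limma). Its relative Kcnt2, the Slick channel, was at 7.45 to 8.94 TPM in Qk_KO and 8.55 to 9.05 TPM in Control. Kcnu1, the pH-sensitive channel known from sperm, was at 3.58, 3.79 and 4.13 TPM in Qk_KO and 3.18, 2.59 and 2.51 TPM in Control. The groups did not overlap, and its log2 change of 0.37 was the most positive of the 76 genes (95% interval −0.01 to 0.74, adjusted p = 0.589 by limma).

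**Figure D3:**
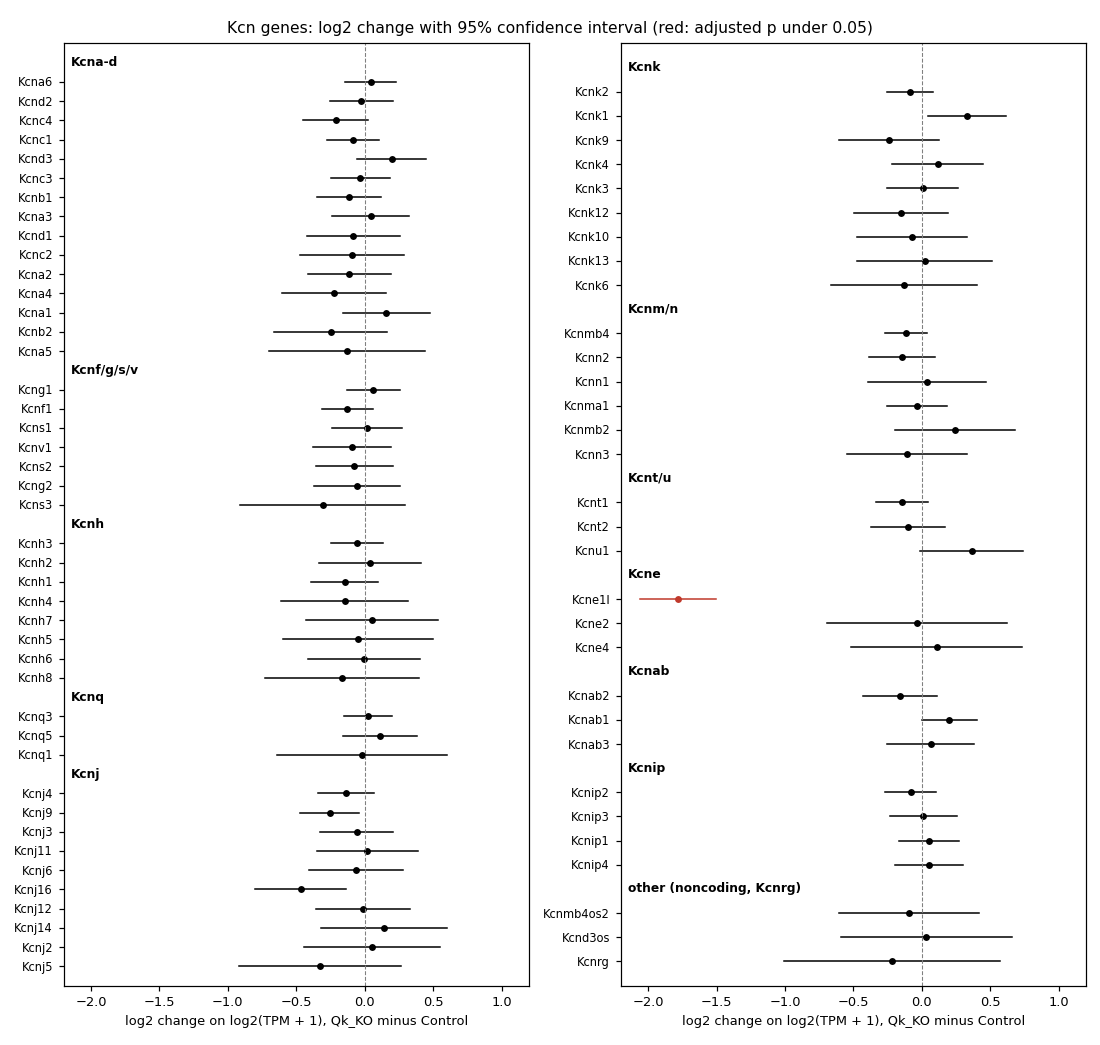
Log2 change of 74 of the 76 Kcn genes on the log2(TPM + 1) scale, Qk_KO minus Control (horizontal axis), with its 95% interval from limma, grouped by subfamily and ordered by mean level from top to bottom within each. Kcne1l (red, −1.78) passed the adjusted threshold of 0.05, and the other estimates lay between −0.47 and 0.37.

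Across the 76 members, 28 had a log2 change above 0 and 48 below 0, and the median was −0.06 (all genes tested: 6444 above, 8550 below, median −0.03). After median-of-ratios scaling the split was 31 to 45 with a median of −0.03, beside 7510 to 7484 and a median of 0.000478 for all genes. Unadjusted p under 0.05 was reached by 4 of 76, namely Kcne1l, Kcnj16, Kcnj9 and Kcnk1, where 8.72% of all tested genes reached it. Groups did not overlap for 8 of 76. Of these, 5 were lower in Qk_KO (Kcne1l, Kcnj16, Kcnj9, Kcnmb4 and Kcnt1), where 8.98% of all genes were, and 3 were higher, Kcnab1 and Kcnu1 among them, where 5.2% were. Without regard to direction, the share of all tested genes without overlap was the 14.2% given above, so 8 of 76 was not above it. After median-of-ratios scaling the number was again 8, but Kcnj9 and Kcnmb4 overlapped and Kcnk1 and Kcna1 did not. A 95% interval within 0.5 of 0 was found for 49 of 76, or 64.5%, and for 63.6% of all genes tested. For the 56 members of at least 5 TPM it was 83.9%, beside 79.4% of all genes of that level. The members with intervals reaching past those bounds include Kcne2, Kcne4 and most members under 5 TPM, for which the interval does not exclude a change of that size.

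By summed level, the largest subfamilies were the calcium-activated group with 16.5% of the Kcn TPM, the KChIP genes with 15.1% and the Kv1 to Kv4 pores with 14.1%. The inward rectifiers held 10.1%, the leak channels 9.15% and the KCNQ channels 9.00%, while the Kcne genes held 1.18%. All 76 genes together summed to 1791, 1874 and 1788 TPM in Qk_KO and 1967, 1860 and 1876 TPM in Control, with overlap. Sums did not overlap for the Kv1 to Kv4 pores, the calcium-activated group (290 to 300 TPM in Qk_KO, 302 to 342 TPM in Control), the Kcnt and Kcnu genes (42.7 to 45.3 TPM in Qk_KO, 46.5 to 47.3 TPM in Control) and the Kcne genes. No share over all genes stands beside these sums, and single genes held much of them. Kcnmb4 averaged 219 of the 306 TPM of the calcium-activated group. Kcnt1 averaged 33.6 of the 45.4 TPM of the Kcnt and Kcnu genes, of which Kcnu1 was higher in Qk_KO without overlap. The ratio of Qk_KO to Control sums was 0.382 for Kcne and between 0.912 and 1.03 for the other 11 groups. After median-of-ratios scaling the sums of the Kv1 to Kv4 pores and of the calcium-activated group overlapped, and the Kcne ratio was 0.390.

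**Figure D4:**
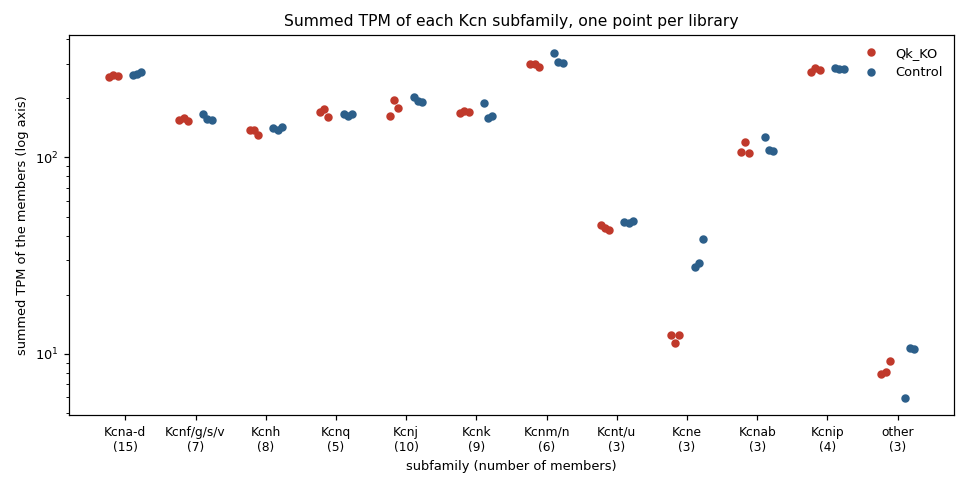
Summed TPM of the members of each Kcn subfamily (vertical, log axis), 1 point per library, Qk_KO left and Control right; the number of members stands under each name. The Kcne sums lie at 11.4 to 12.5 TPM in Qk_KO and 27.8 to 38.3 TPM in Control, and the ratios of Qk_KO to Control sums of the other subfamilies lie between 0.912 and 1.03.

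Genes that work with these channels but carry other symbols gave no call either. A list of 20 channel partners and related channels was set beside the Kcn genes, of which 17 were tested, and 0 passed the threshold (median log2 change −0.05). Hcn2, a hyperpolarisation-activated cation channel, was at 103, 105 and 108 TPM in Qk_KO and 90.2, 92.9 and 96.1 TPM in Control. It alone of the list had an unadjusted p under 0.05, and it missed the threshold (log2 change 0.18, adjusted p = 0.478 by limma). Dpp6, a transmembrane partner of Kv4 channels, was at 126, 125 and 126 TPM in Qk_KO and 120, 123 and 138 TPM in Control. Lingo1, a neuronal membrane protein that can act on BK channels, was the most abundant of the list, at 296, 354 and 296 TPM in Qk_KO and 261, 327 and 335 TPM in Control.

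The lowest members sat close to the limit of 1 TPM. Just inside it were Kcnk6, with a mean of 1.03 TPM, and Kcnj5, with 1.07 TPM. Just outside were Kcnk5, with 0.927 TPM, and Kcnn4, with 0.703 TPM. Kcnj5 and Kcnk6 passed with a Qk_KO mean under 1 TPM, 0.833 and 0.940 TPM, against Control means of 1.31 and 1.12 TPM. In all, 19 Kcn rows lay below the limit, and 8 of them were listed at 0 in all 6 libraries. Of the last 3 members, Kcnrg had a Qk_KO value of 0.170 TPM in replicate 2 beside 1.45 and 1.86 TPM in replicates 1 and 3, against 1.10 to 1.64 TPM in Control. Kcnmb4os2 was at 4.54 to 5.97 TPM in Qk_KO and 3.61 to 7.03 TPM in Control, and Kcnd3os at 1.33 to 2.92 TPM in Qk_KO and 1.26 to 2.77 TPM in Control. Each overlaps an end of its host gene on the opposite strand. Reads from the shared stretch could not be told apart if counting ignored strand.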

How the data were processed

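Each library has a deposited table of TPM, made by the authors, keyed by Entrez number and symbol, per the file headers. STAR 2.4.1d, RSEM 1.3.0 and mouse builds mm10 and GRCm38.p4 are named in the submitters' processing notes, and the sources used here give no annotation, strand setting or trimming. TPM made by the authors keeps no depth, so the number of reads behind a value is unknown and no counting interval was computed. No pair of libraries was identical: 50 to 75 of the 14994 tested genes had equal values in any pair.

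TPM were used unscaled. Genes averaging 1 TPM or more were fitted as log2(TPM + 1) with limma 3.58.1 in R 4.3.3 (eBayes with trend, group as the only term), two-sided, with Benjamini-Hochberg adjustment over all 14994 genes and a threshold of 0.05. This scale understates changes of low genes. P-values set the difference between groups against the spread within groups of these libraries, which eBayes moderates across all genes tested. The members and lists were chosen with earlier results of these data known. Named genes were those past the threshold or with unadjusted p under 0.05, the 2 highest and, from a mean of 2 TPM, the most positive and negative of each subfamily, and all Kcne, Kcnq and calcium-activated genes, except members not reported here. Of the 76 members, 74 are reported singly, and the rest count in every total. Other genes were named after their values were seen. All 76 members matched GENCODE M21 (GRCm38), 75 by Entrez number. Alternatives were the filter, pseudocount, scaling, trend, replicate block and leaving out each library.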

Additional observations from a re-analysis of the deposited data

How the results depend on the processing

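Kcne1l was the one member past the threshold in the reported fit and in all 13 alternatives, with log2 changes of −1.91 (pseudocount 0.1) to −1.39 (pseudocount 5) and, when 1 library was dropped, of −1.87 to −1.68 (highest adjusted p = 0.0143). Under a replicate block its adjusted p was 0.00650. The block changed no call among the members. Same-numbered libraries had deviations correlated at 0.0134 to 0.0350, each library correlating best with its own number, too weakly to treat the numbers as pairs. The number of all genes past the threshold, 58, was 38 with the replicate block, 37 with no expression filter, 28 with no mean-variance trend, 54 after median-of-ratios scaling, 57 with a pseudocount of 0.1, 60 with a pseudocount of 5, 74 among genes averaging 5 TPM or more, and 20 to 53 when 1 library was dropped (20 without Control replicate 2, 28 without Control replicate 3). It was 31, 28 and 33 without Qk_KO replicates 1, 2 and 3. The cause was not tested. The number of members without overlap, 8, was 11 to 19 with a library left out (19 without Control replicate 1 or Qk_KO replicate 3, 17 without Qk_KO replicate 2, 15 without Control replicate 2), where separation is easier by construction. The share of all tested genes without overlap in those settings is not given here, so these counts have no background beside them. The median of the members stayed between −0.06 and −0.03. Of 47 members with values in the text, 18 changed sign in some setting, none called and, apart from Kcnrg (reported −0.22), none with a reported log2 change over 0.11 in size. Kcnd2 was at 0.00342 after median-of-ratios scaling. Leaving out a library gave ranges across 0 for Kcna6 (−0.000283 to 0.082), Kcnd2 (−0.11 to 0.052), Kcnd3os (−0.17 to 0.22), Kcne2 (−0.35 to 0.26), Kcne4 (−0.14 to 0.25), Kcnh2 (−0.11 to 0.20), Kcnh7 (−0.20 to 0.18), Kcnip1 (−0.00857 to 0.13) and Kcnip3 (−0.082 to 0.091). The same ranges were −0.074 to 0.00932 for Kcnma1, −0.35 to 0.050 for Kcnmb4os2, −0.15 to 0.19 for Kcnn1, −0.21 to 0.15 for Kcnq1, −0.00493 to 0.059 for Kcnq3, −0.13 to 0.20 for Kcnj11, −0.15 to 0.019 for Kcnj3, −0.16 to 0.062 for Kcnj6 and −0.47 to 0.18 for Kcnrg. Depth is unknown, so low members cannot be given a counting error.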
